A study of Sus scrofa with 9 samples.

Results

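AMP-activated protein kinase (AMPK) and the kinases that switch it on were described in 9 porcine hearts through 10 genes: the γ subunits PRKAG1, PRKAG2 and PRKAG3, the catalytic α subunits PRKAA1 and PRKAA2, the β subunits PRKAB1 and PRKAB2, and the upstream kinases STK11, CAMKK1 and CAMKK2. Of the 25149 genes in the expression table, 7 of the 10 were found by symbol and 2 more, PRKAG1 and PRKAB2, by their Ensembl gene ID, because the table leaves their symbol blank. PRKAA2, the α2 subunit, was not analysed here. PRKAG2 was chosen by its measured values: its TPM was lower in both groups preserved by hypothermic oxygenated perfusion than in the cold-stored group, so its levels are given as a description without a test. The other members came in as its partners and were tested. TPM (transcript abundance per gene) is the number of reads of a gene scaled for its length and to a common total per heart.

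AMPK is a complex of one α, one β and one γ subunit that senses a falling energy charge. The γ subunit binds AMP, ADP or ATP, the β subunit carries a glycogen-binding domain and ties the complex together, and the α subunit is the kinase, which becomes active when LKB1 (the product of STK11) or a calcium/calmodulin-dependent kinase kinase (CAMKK1, CAMKK2) phosphorylates its activation loop. In heart muscle the kinase is known for promoting glucose uptake, glycolysis and fatty acid oxidation during ischemia, and inherited mutations of PRKAG2 cause a cardiomyopathy with glycogen storage and pre-excitation.

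The hearts came from female American Yorkshire pigs aged 4 to 6 months in a model of donation after circulatory death, with 15 min of warm ischemia in every group. Group 1 (NRP+HOPE 24h, pigs 27, 28 and 30) had normothermic regional perfusion (NRP), which restores blood flow inside the donor, for 60 min and then 24 h of hypothermic oxygenated perfusion (HOPE) at 8 °C. Group 2 (NRP+SCS 2h, pigs 24, 25 and 29) had the same NRP and then 2 h of static cold storage (SCS) at 4 °C, while HOPE for 2 h without any NRP was used in Group 3 (No NRP+HOPE 2h: pigs 31, 33, 34). All 9 hearts were then reperfused for 2 h by normothermic machine perfusion, and 1 apex biopsy per heart was sequenced at its end, so every value is from reperfused and not from stored tissue. Storage method, temperature and length cannot be told apart between Groups 1 and 2, NRP, storage method and storage temperature cannot be told apart between Groups 3 and 2, and NRP and storage length cannot be told apart between Groups 1 and 3. Groups 1 and 3 were both compared with the same 3 hearts of Group 2. In the paper, the HOPE perfusate held donor packed red blood cells and insulin, whereas the cold-stored hearts lay submerged in heart solution. These contents cannot be told apart from the storage method.

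The labels call the samples cardiomyocytes, whereas the biopsies hold whole myocardium. The 8 cardiomyocyte markers found of 13 written, among them TNNT2 and TNNI3, summed to 23393 to 44779 TPM in Group 1, 28417 to 38607 in Group 2 and 28072 to 39177 in Group 3, and 0 of the 8 had an unadjusted p under 0.05 against Group 2 in either group. Of the 8, ACTC1 was under it for Group 1 against Group 3, with a log2 fold change of 0.76 (unadjusted p = 0.0488, adjusted p = 0.829) and overlap. The 5 fibroblast markers summed to 763 to 1116 TPM in Group 1, 669 to 982 in Group 2 and 1020.2 to 1150.4 in Group 3, where COL3A1 and DCN were above Group 2 without overlap. The 5 endothelial markers summed to 186 to 410 TPM in Group 1, 357 to 389 in Group 2 and 177 to 381 in Group 3, and all 5 had negative log2 fold changes for Group 1 against Group 2 (median −0.47). Of the 5, TEK was lower in Group 1 than in Group 2 without overlap (log2 fold change −0.68, limma unadjusted p = 0.0747). None of these 10 fibroblast and endothelial markers had an unadjusted p under 0.05 in any comparison. The 4 mural markers, with MYH11 listed at 0 in every heart, summed to 188 to 308 TPM in Group 1, 258 to 382 in Group 2 and 358 to 426 in Group 3. Of these, ACTA2 was lower in Group 1 than in Group 3 without overlap, with a log2 fold change of −1.28 (unadjusted p = 0.00316, adjusted p = 0.402). ACTA2 was also higher in Group 3 than in Group 2 without overlap (log2 fold change 0.60, limma unadjusted p = 0.116). For the 4 macrophage markers the sums were 54.9 to 129 TPM in Group 1. They were 66.3 to 175 TPM in Group 2 and 96.4 to 208 in Group 3. MRC1 lay below Group 2 without overlap in both HOPE groups. Its log2 fold changes were −0.45 in Group 1 and −0.32 in Group 3 (limma unadjusted p = 0.152 and 0.300). Of the 4 log2 fold changes against Group 2, 2 were positive in Group 1 and 1, C1QA at 0.95, in Group 3. The 4 skeletal muscle markers found summed to 3337 to 6923 TPM in Group 1, 4914 to 5521 in Group 2 and 2504 to 4898 in Group 3. Nearly all of that was ACTA1, which heart muscle also expresses and which was lower in Group 3 than in Group 2 without overlap (log2 fold change −0.46, unadjusted p = 0.136, adjusted p = 0.813), while MYH2 and MYH4 were listed at 0 in all 9 hearts. The 3 neutrophil markers, with CSF3R at 0 throughout, summed to at most 13.2 TPM in Group 2, 3.89 in Group 1 and 0.34 in Group 3. The 3 erythroid markers, led by HBB, summed to 74.1 to 430 TPM in Group 1. Their sums were 72.3 to 136 TPM in Group 2 and 226 to 379 in Group 3. The 13 mitochondrially encoded genes took 38.2% of all TPM in pig 30 and 44.8% to 55.3% in the other 8 hearts. In bulk tissue, fewer cells of a type and less RNA per cell cannot be told apart.

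PRKAG2, which encodes the γ2 subunit with its long N-terminal isoforms, was the most abundant member in the cold-stored hearts, and it was far less abundant in both HOPE groups. In Group 2 it stood at 238.5, 239.2 and 297.3 TPM in pigs 24, 25 and 29 (258 ± 33.8, SD, n = 3). In Group 1 it stood at 52.1, 81.0 and 126.6 TPM in pigs 27, 28 and 30 (86.6 ± 37.5, SD, n = 3). In Group 3 it stood at 59.3, 56.6 and 40.8 TPM in pigs 31, 33 and 34 (52.2 ± 9.97, SD, n = 3). Every cold-stored heart lay above every HOPE heart, whereas Groups 1 and 3 overlapped. The mean of Group 1 was 33.5% of that of Group 2, and the mean of Group 3 was 20.2% of it. On the scale used for all genes, log2(TPM + 1), the difference was −1.65 for Group 1 against Group 2, −2.30 for Group 3 against Group 2 and 0.65 for Group 1 against Group 3.

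Because PRKAG2 was selected on these differences, their sign is fixed by that choice, and their ranges under other settings are given as description only. When hearts were removed one at a time, PRKAG2 had log2 fold changes from −1.97 to −1.33 for Group 1 against Group 2 and from −2.39 to −2.13 for Group 3 against Group 2. Between Groups 1 and 3 it ranged from 0.33 without pig 30 to 0.96 without pig 27. When TPM were recomputed without the 13 mitochondrial genes, the log2 fold changes of PRKAG2 were −1.66, −2.32 and 0.66 in the same order. The 3 erythroid markers were higher than in Group 2 in all Group 3 hearts, with log2 fold changes of 1.14 to 1.52 and adjusted p of 0.516 to 0.689 (unadjusted p of 0.0111 to 0.0494), and overlapped Group 2 in Group 1, with log2 fold changes of 0.60 to 1.27 and adjusted p of 0.943 to 0.993 (unadjusted p of 0.0284 for HBB to 0.314). The 1 neutrophil marker that passed the filter, S100A9, was lower than in Group 2 in both HOPE groups, as PRKAG2 was. Its log2 fold change was −2.17 for Group 3 against Group 2, without overlap (unadjusted p = 0.000389, adjusted p = 0.140), and −1.35 for Group 1 against Group 2, with overlap (unadjusted p = 0.0117, adjusted p = 0.792). S100A9 was at most 8.02 TPM in any heart, and the neutrophil marker CSF3R was listed at 0. Erythroid, neutrophil, fibroblast, endothelial, mural, macrophage and skeletal muscle markers are given above. Their part in the PRKAG2 difference, and that of the red blood cells and insulin in the HOPE perfusate, was not tested.

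**Figure D1:**
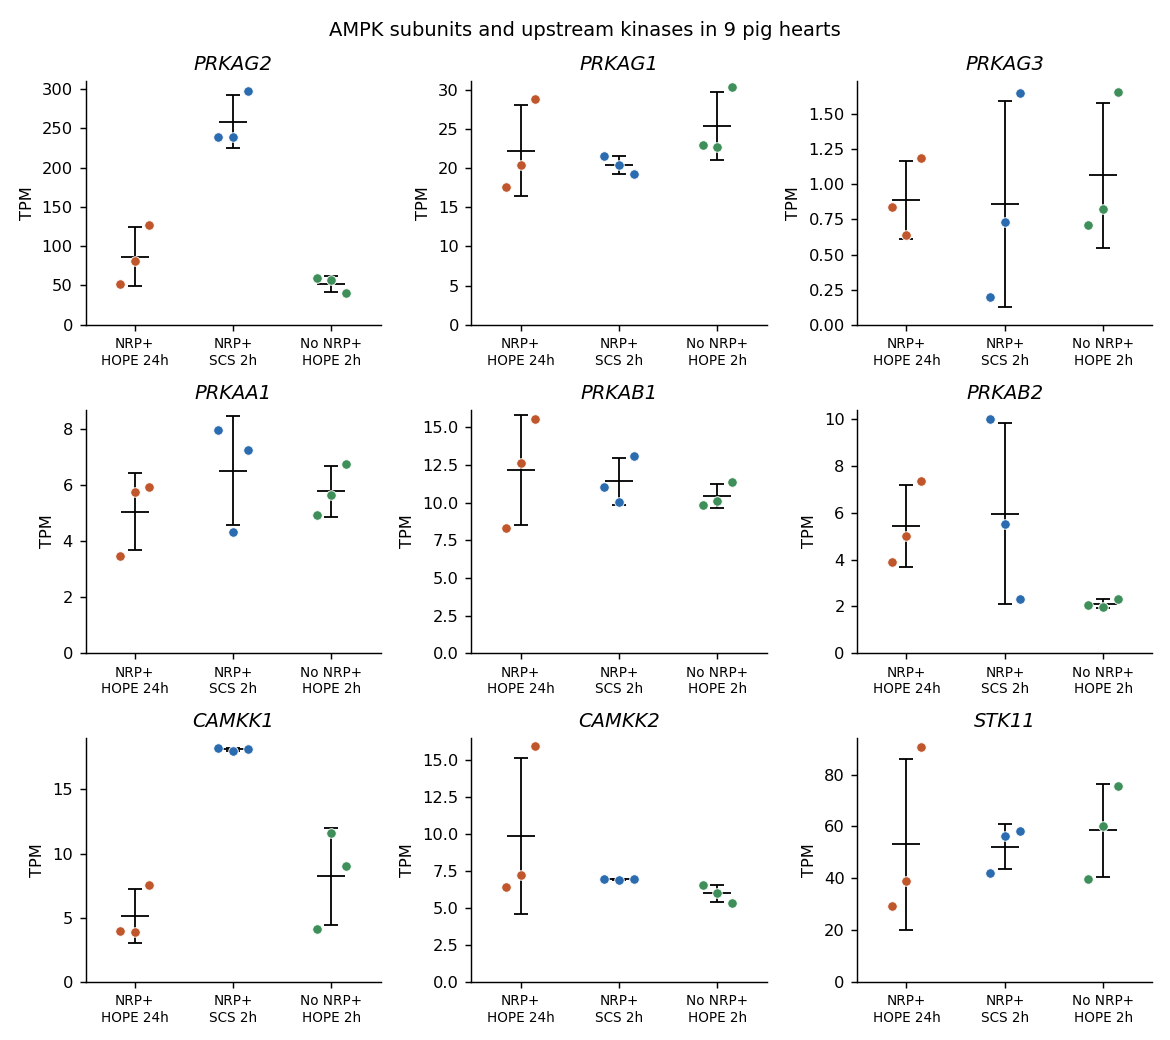
TPM of the 9 members found in the table, 1 panel per gene, with 1 point per heart (in order of pig number from left to right), the group mean as a horizontal bar and the SD as whiskers. PRKAG2 and CAMKK1 are the 2 panels in which all 3 NRP+SCS 2h hearts lie above all 6 other hearts.

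The other γ subunits did not follow PRKAG2. PRKAG1, which encodes the broadly expressed γ1 subunit, was at 17.5, 20.4 and 28.7 TPM in pigs 27, 28 and 30 of Group 1. It was at 21.5, 20.3 and 19.2 TPM in pigs 24, 25 and 29 of Group 2. It was at 22.9, 22.7 and 30.4 TPM in pigs 31, 33 and 34 of Group 3. All Group 3 hearts were thus above all Group 2 hearts for PRKAG1, while Group 1 spanned both. The log2 fold change of PRKAG1 was 0.29 for Group 3 against Group 2 (95% CI −0.32 to 0.90, adjusted p = 0.887 by limma with Benjamini-Hochberg adjustment) and 0.09 for Group 1 against Group 2 (95% CI −0.52 to 0.70, adjusted p = 0.993). PRKAG3, whose γ3 subunit is known from glycolytic skeletal muscle, was near the limit of the filter on low values, between 0.20 and 1.66 TPM in the 9 hearts, and its groups overlapped in all 3 comparisons.

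The make-up of the γ transcripts was compared within each heart. PRKAG2 made up 91.7%, 91.9% and 93.4% of the summed γ TPM in the cold-stored hearts (92.3% ± 0.96, SD, n = 3). Its share was 73.9%, 79.4% and 80.9% in Group 1 (78.1% ± 3.65, SD, n = 3) and 71.5%, 70.6% and 56.0% in Group 3 (66.0% ± 8.69, SD, n = 3). The 3 groups did not overlap in this share, which contains the values that PRKAG2 was selected on and was therefore not tested. PRKAG2 was 12.8-fold above PRKAG1 on average in Group 2 (SD 2.34), 3.78-fold in Group 1 (SD 0.74) and 2.14-fold in Group 3 (SD 0.69). The γ transcripts together averaged 280, 110 and 78.6 TPM in the same order, whereas the γ transcripts other than PRKAG2 averaged 21.2, 23.1 and 26.4 TPM.

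**Figure D2:**
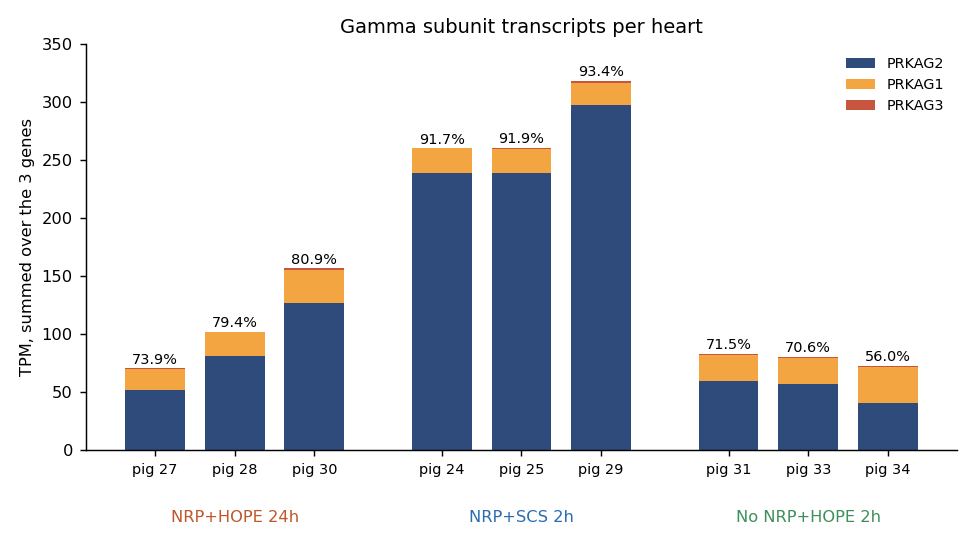
Stacked bars of the TPM of PRKAG2, PRKAG1 and PRKAG3 in each of the 9 hearts, with the share of PRKAG2 in percent above each bar. The NRP+SCS 2h bars reach 260 to 318 TPM and the other 6 stay between 70.5 and 157 TPM, with a PRKAG1 segment of 17.5 to 30.4 TPM over the 9 hearts.

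Of the catalytic subunits, PRKAA1 (α1) was at 3.46, 5.75 and 5.93 TPM in Group 1, 7.96, 4.30 and 7.22 in Group 2 and 4.93, 5.62 and 6.75 in Group 3. Its groups overlapped in every comparison. The log2 fold change of PRKAA1 was −0.30 for Group 1 against Group 2 (95% CI −1.001 to 0.396) and −0.12 for Group 3 against Group 2 (95% CI −0.82 to 0.58), so differences of those sizes were within the error. PRKAB1 (β1) varied as little, from 8.28 to 15.5 TPM over all hearts, with log2 fold changes of 0.05, −0.11 and 0.16 for Group 1 against Group 2, Group 3 against Group 2 and Group 1 against Group 3.

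PRKAB2, the β2 subunit known from skeletal and cardiac muscle, was lowest in the hearts without NRP, but the cold-stored hearts disagreed among themselves. It was at 2.07, 1.99 and 2.32 TPM in pigs 31, 33 and 34 of Group 3 and at 3.91, 5.03 and 7.37 TPM in pigs 27, 28 and 30 of Group 1. In Group 2 it was at 10.01, 5.53 and 2.32 TPM in pigs 24, 25 and 29. Group 3 was below Group 1 without overlap, and it was below Group 2 only by the margin between 2.3196 TPM in pig 34 and 2.3218 TPM in pig 29. The log2 fold change of PRKAB2 was −0.99 for Group 3 against Group 2 (SE 0.41, unadjusted p = 0.029, adjusted p = 0.631) and 1.01 for Group 1 against Group 3 (SE 0.41, unadjusted p = 0.0268, adjusted p = 0.771), and neither passed the adjusted threshold. Without pig 24 the first value was −0.58, and without pig 29 it was −1.44. The part of the mural marker ACTA2 and of ACTC1, which also differed between Groups 1 and 3 at an unadjusted p under 0.05, in the second value was not tested. Nor was that of S100A9 (log2 fold change −2.17) and the 3 erythroid markers (1.14 to 1.52) in the first value.

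As a share of the β transcripts, PRKAB2 made up 32.1%, 28.5% and 32.2% in Group 1 and 17.4%, 16.4% and 17.0% in Group 3, groups that did not overlap. In Group 2 the shares were 47.6%, 35.5% and 15.0%, which span the other groups. The mean of Group 1 was 14.0 percentage points above that of Group 3 (two-sided exact permutation test p = 0.1, adjusted p = 0.3 over 3 comparisons). With 3 hearts against 3 the smallest p this test can give is 0.1. The summed β transcripts were 17.6 ± 5.36, 17.4 ± 3.19 and 12.6 ± 0.97 TPM (SD, n = 3 each) in Groups 1, 2 and 3. PRKAG2 stood 15.3-fold above the β sum on average in Group 2, against 4.80-fold in Group 1 and 4.21-fold in Group 3, again as a description.

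Among the upstream kinases, CAMKK1, which encodes CaMKKα, was the member other than PRKAG2 that separated the cold-stored hearts from all others. It was at 18.3, 18.0 and 18.2 TPM in pigs 24, 25 and 29 of Group 2 (18.1 ± 0.11, SD, n = 3). It was at 3.96, 3.86 and 7.57 TPM in Group 1 (5.13 ± 2.12, SD, n = 3) and at 4.11, 11.6 and 9.02 TPM in Group 3 (8.24 ± 3.79, SD, n = 3). Groups 1 and 3 overlapped for this gene. The log2 fold change of CAMKK1 was −1.70 for Group 1 against Group 2 (SE 0.37, 95% CI −2.49 to −0.90, unadjusted p = 0.000437). Adjusted over all 11782 genes tested, its limma p was 0.199, which did not pass 0.05. In Group 3 against Group 2, CAMKK1 had a log2 fold change of −1.15 (SE 0.37, 95% CI −1.94 to −0.36, unadjusted p = 0.00773, adjusted p = 0.484), and without pig 31 it was −0.77. In both comparisons the unadjusted p was under 0.05 in all 13 alternative analyses, which reuse these hearts. The adjusted limma p for Group 3 against Group 2 ranged from 0.154 to 0.999 over them, so none passed 0.05. The adjusted p for Group 1 against Group 2 ranged from 0.0178, where each heart was weighted by its variability (array weights), to 0.746 without pig 28. S100A9 (log2 fold changes −1.35 and −2.17) and MRC1 (−0.45 and −0.32) were also lower in Groups 1 and 3 than in Group 2. The 3 erythroid markers had log2 fold changes of 0.60 to 1.27 and 1.14 to 1.52 in the same order. The part of these markers in the CAMKK1 differences was not tested.

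CAMKK2, which encodes CaMKKβ, the form best known for activating AMPK, showed no such separation. It was at 6.95, 6.90 and 6.92 TPM in Group 2, at 6.40, 7.20 and 15.9 TPM in Group 1 and at 6.53, 6.03 and 5.36 TPM in Group 3. All Group 3 hearts were below all Group 2 hearts, by a small step with a log2 fold change of −0.19 (95% CI −0.91 to 0.54, limma adjusted p = 0.951). The log2 fold change of CAMKK2 for Group 1 against Group 2 was 0.35 (95% CI −0.38 to 1.08) and turned to −0.02 without pig 30. CAMKK1 therefore made up 72.4% ± 0.04 of the summed transcripts of both kinases in Group 2, 35.1% ± 3.02 in Group 1 and 55.7% ± 14.9 in Group 3 (SD, n = 3 each).

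STK11, which encodes LKB1, was the most variable member within groups, with a pooled SD of 0.57 on the log2 scale against 0.25 for PRKAG1. It was at 29.4, 39.0 and 90.7 TPM in Group 1, 42.1, 56.5 and 58.1 in Group 2 and 39.8, 60.3 and 75.6 in Group 3. All 3 comparisons overlapped, with log2 fold changes of −0.13, 0.13 and −0.26 for Group 1 against Group 2, Group 3 against Group 2 and Group 1 against Group 3. The adjusted p of STK11 was 0.976 or higher in all 3.

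**Figure D3:**
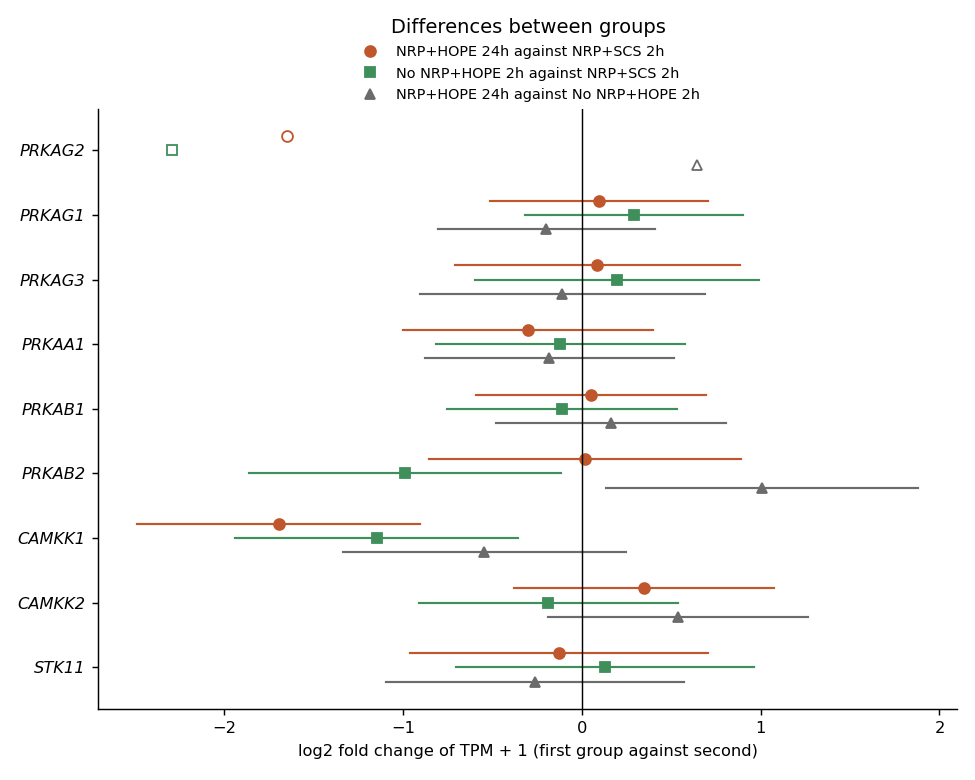
Log2 fold changes of TPM + 1 for the 9 members in the 3 comparisons, with 95% confidence intervals from limma as horizontal lines. PRKAG2 is drawn with open symbols and no interval because it was selected on these values. The intervals of CAMKK1 in both comparisons with NRP+SCS 2h, and those of PRKAB2 in both comparisons with No NRP+HOPE 2h, leave out 0, and all other intervals include it.

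All 8 members other than PRKAG2 passed the filter of at least 1 TPM in at least 3 hearts. A call required a log2 fold change beyond 1 in either direction and, from limma, an adjusted p below 0.05. For Group 1 against Group 2, 0 of the 8 members were called, against 0.0255% of all genes tested. At an unadjusted p under 0.05, 1 of the 8 was lower (3.14% of all genes) and 0 were higher (1.82%). All hearts of one group lay below those of the other for 1 of the 8 (7.32% of all genes) and above them for 0 (2.5%). For Group 3 against Group 2, 0 of the 8 were called (0.0509% of all genes), 2 were lower at an unadjusted p under 0.05 (4.65%) and 0 higher (2.57%). In that comparison 3 of the 8, PRKAB2, CAMKK1 and CAMKK2, lay below without overlap (10.3% of all genes) and 1, PRKAG1, above (4.44%). Between Groups 1 and 3, 0 of the 8 were called (0.0509%), 1 was higher at an unadjusted p under 0.05 (2.78%) and 0 lower (3.23%), and 1 lay above without overlap (2.97%) and 0 below (4.51%). With array weights, 1 member, CAMKK1, was called for Group 1 against Group 2 and 0 in the other comparisons. The median log2 fold change of the 8 members was 0.03, −0.12 and −0.15 in the 3 comparisons, beside −0.12, −0.07 and −0.03 over all genes. Scaling each heart by its median of ratios moved the median of all genes by 0.12 for Group 1 against Group 2, so changes smaller than that depend on the scaling.

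PRKAG2 headed the order of the levels in the cold-stored hearts. In Group 2 it ran from PRKAG2 (258 TPM) through STK11 (52.2), PRKAG1 (20.4), CAMKK1 (18.1) and PRKAB1 (11.4) to CAMKK2 (6.92), PRKAA1 (6.50), PRKAB2 (5.96) and PRKAG3 (0.86). CAMKK2, PRKAA1 and PRKAB2 overlapped in that group, whereas PRKAG2 was above every other member in each of its hearts. In Group 3 PRKAG2 (40.8 to 59.3 TPM) and STK11 (39.8 to 75.6 TPM) overlapped, and STK11 was the higher in pigs 33 and 34. In Group 1 the ranges of the same genes overlapped too, but PRKAG2 was above STK11 within each heart. The values were 52.1 against 29.4 TPM in pig 27, 81.0 against 39.0 in pig 28 and 126.6 against 90.7 in pig 30. Pig 30 of Group 1, the heart with the lowest mitochondrial share, had the highest value of its group for all 9 members, and pig 27 had the lowest for 7 of the 9. The part of the mitochondrial share in these members' spread was not tested.

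Across the 9 hearts, which share the group structure and the TPM scale, the member whose log2(TPM + 1) was most like that of PRKAG2 was CAMKK1 (Pearson r = 0.73, n = 9). The 95th percentile of r over 8461 genes with a symbol was also 0.73 and their median was 0.21. After the group means were subtracted, r with PRKAG2 was 0.30 for CAMKK1, 0.87 for CAMKK2 and 0.78 for PRKAB1, where the median over the same 8461 genes was 0.37 and the 95th percentile 0.77. The genes with the highest r over the 9 hearts were SRSF1 (0.94), a splicing factor, GCN1 (0.94), a partner of the GCN2 stress kinase, RPP30 (0.93), a subunit of ribonuclease P, RIC3 (0.93), a chaperone of acetylcholine receptors, and RF00393 (0.92), which the table names by its RNA family. RIC3 reached 1 TPM in the 3 hearts of Group 2 alone, at 1.10 to 1.51 TPM, and was at most 0.96 TPM in the other 6, so it passed the filter only through the group in which PRKAG2 is high. SRSF1 averaged 63.2 ± 5.61 TPM in Group 2, 42.9 ± 9.998 in Group 1 and 38.7 ± 0.34 in Group 3 (SD, n = 3 each). GCN1 averaged 26.0 ± 0.87, 18.5 ± 4.31 and 15.5 ± 1.39 TPM in the same order. By deviations from the group means the 5 most alike were TPST1 (0.96), THOC3 (0.95), DND1 (0.95), HIC1 (0.95) and DDX28 (0.94). THOC3, a subunit of the mRNA export complex THO, was also high over the 9 hearts, with an r of 0.92.

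The genes next to PRKAG2 on the chromosome were examined beside it. Their order was taken from the Sscrofa11.1 annotation of RefSeq, in which KMT2C, GALNT11 and GALNTL5 lie on one side and RHEB, CRYGN and WDR86 on the other. KMT2C, a histone methyltransferase, GALNT11, a glycosyltransferase, and RHEB, the small GTPase that activates mTORC1, passed the filter. RHEB, the nearest tested neighbour, was at 109.7, 151.6 and 197.8 TPM in Group 1, 135.5, 158.6 and 148.5 in Group 2 and 85.5, 115.2 and 119.3 in Group 3. Group 3 lay below Group 2 for RHEB, with a log2 fold change of −0.48 (95% CI −1.06 to 0.11, unadjusted p = 0.104, adjusted p = 0.780, limma), and Group 1 overlapped Group 2 with a log2 fold change of 0.01 (95% CI −0.57 to 0.60). For GALNT11 the log2 fold changes were positive, 0.22 for Group 1 against Group 2 and 0.33 for Group 3 against Group 2, and for KMT2C they were −0.45 and −0.18. None of the 3 tested neighbours had an unadjusted p under 0.05 in either comparison. GALNTL5 and WDR86 were below the filter, GALNTL5 with 0.11 to 0.23 TPM in Group 2 and at most 0.05 TPM in the other hearts, and CRYGN was not analysed here.

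**Figure D4:**
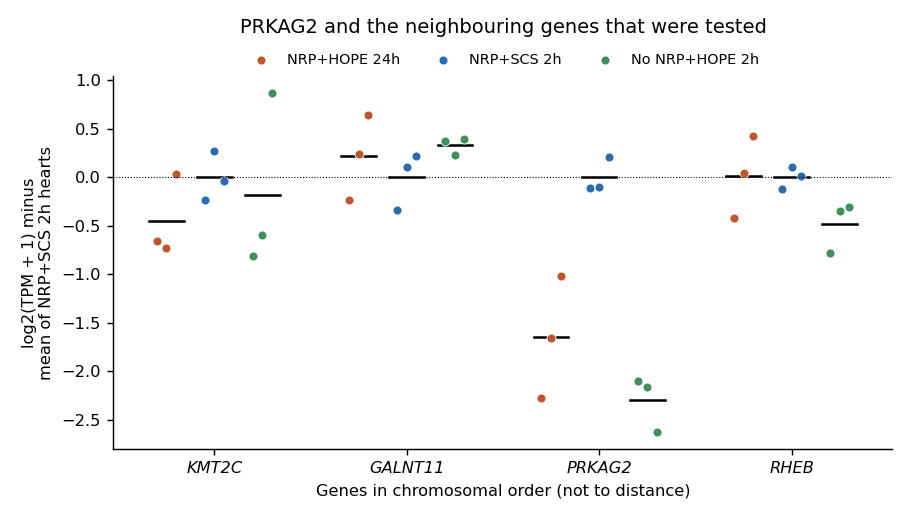
Log2(TPM + 1) of PRKAG2 and its 3 tested neighbours in each heart, relative to the mean of the NRP+SCS 2h hearts for that gene, with short bars for the group means and genes in chromosomal order. PRKAG2 is the 1 gene of the 4 with all 6 HOPE hearts more than 1 log2 unit below that mean.

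The genes around AMPK were grouped by role into 7 lists of 101 genes, of which 76 were in the table and 66 were tested. None was called in any comparison. At an unadjusted p under 0.05, 2 of the 66 (3.03%) were higher and 2 (3.03%) lower for Group 1 against Group 2, beside 1.82% and 3.14% of all genes. In Group 3 against Group 2, 1 (1.52%) was higher and 5 (7.58%) lower, beside 2.57% and 4.65%. Between Groups 1 and 3, 2 (3.03%) were higher and 1 (1.52%) lower, beside 2.78% and 3.23%. The median log2 fold change of the 66 genes was −0.24, −0.19 and 0.02 in that order, beside −0.12, −0.07 and −0.03 over all genes.

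Of the 24 tested direct substrates, 2 (8.33%) were higher and 1 (4.17%) lower for Group 1 against Group 2 at an unadjusted p under 0.05, beside 1.82% and 3.14% of all genes. PFKFB2, the cardiac isoform of the enzyme that makes the glycolytic activator fructose 2,6-bisphosphate, was at 6.96, 5.96 and 12.7 TPM in Group 1 and at 25.2, 22.4 and 22.9 TPM in Group 2. The groups did not overlap, with a log2 fold change of −1.43 for PFKFB2 (SE 0.41, unadjusted p = 0.00384, adjusted p = 0.520). In Group 3 PFKFB2 was at 6.90, 9.52 and 24.2 TPM, which overlapped Group 2 (log2 fold change −0.94, unadjusted p = 0.039, adjusted p = 0.680). PFKFB3, the inducible isoform, was at 27.2, 34.9 and 48.0 TPM in Group 1 and 23.8, 27.0 and 7.20 TPM in Group 2 (log2 fold change 1.04, adjusted p = 0.965). ACACB, the acetyl-CoA carboxylase that restrains fatty acid entry into mitochondria, was at 8.01, 8.05 and 13.6 TPM in Group 1 and 21.5, 17.3 and 15.7 TPM in Group 2, without overlap. Its log2 fold change was −0.84 (unadjusted p = 0.0749, adjusted p = 0.993), and in Group 3 ACACB ranged from 8.58 to 33.6 TPM.

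Among targets in fuel use, HK2, an inducible hexokinase, was at 4.93, 8.69 and 10.8 TPM in Group 1 and 12.6, 21.8 and 17.1 TPM in Group 2 (log2 fold change −1.02, SE 0.39, unadjusted p = 0.0199, adjusted p = 0.918). PDK4, the kinase that shuts down pyruvate dehydrogenase, was at 208.2, 101.5 and 174.8 TPM in Group 3 against 378.6, 313.6 and 318.2 TPM in Group 2. All Group 3 hearts were below all Group 2 hearts for PDK4 (log2 fold change −1.11, SE 0.31, unadjusted p = 0.00313, adjusted p = 0.392), and Group 1, at 197.8, 376.5 and 269.5 TPM, overlapped both. PDK4 had a log2 fold change of 0.81 between Groups 1 and 3 (unadjusted p = 0.0211, adjusted p = 0.739). All 5 tested genes of this list had negative log2 fold changes in both comparisons with Group 2, as did 64.1% of all genes tested for Group 1 and 57.8% for Group 3. PPARGC1A and CPT1B were listed at 0 in all 9 hearts, and SLC2A4, the insulin- and AMPK-responsive glucose transporter, was listed at 0 in 8 of 9. An exact 0 in a table of TPM can be a failed estimate, and no change was read from these genes.

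Among the regulators of AMPK, SESN2, a stress-induced gene whose product, sestrin 2, acts on AMPK and mTORC1, was at 2.71, 8.63 and 4.69 TPM in Group 3. It was at 28.7, 17.5 and 13.3 TPM in Group 2 and at 20.5, 29.9 and 20.5 TPM in Group 1, so both NRP groups lay above all hearts without NRP. The log2 fold change of SESN2 was −1.76 for Group 3 against Group 2 (SE 0.39, unadjusted p = 0.000507, adjusted p = 0.162) and 2.04 for Group 1 against Group 3 (SE 0.39, unadjusted p = 0.00013, adjusted p = 0.140). Between Groups 1 and 2 it was 0.29 (95% CI −0.55 to 1.12). PRKAG2, by comparison, was also low in Group 1. The part of ACTA2 and ACTC1 in the SESN2 difference between Groups 1 and 3 was not tested, nor was that of S100A9 (log2 fold change −2.17) and the 3 erythroid markers (1.14 to 1.52) in its difference between Groups 3 and 2. PPP1R3C, a glycogen-targeting subunit of protein phosphatase 1, averaged 51.0 ± 9.74 TPM in Group 3 and 89.5 ± 24.4 TPM in Group 2 (SD, n = 3 each, log2 fold change −0.78). PPP1R3A, another such subunit, had a log2 fold change of −0.84 for Group 1 against Group 3.

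The remaining lists held few genes under the unadjusted threshold. In the adenylate and phosphocreatine list, 1 of 9 (11.1%) was higher and 1 (11.1%) lower for Group 3 against Group 2, beside 2.57% and 4.65% of all genes: NT5E, the ectonucleotidase that makes adenosine (log2 fold change 0.77), and NT5C, a cytosolic nucleotidase (−0.73). In the mTORC1 list, 0 of 6 had an unadjusted p under 0.05 in any comparison, while 3 of 6, RHEB, MLST8 and RPS6KB1, lay below Group 2 without overlap in Group 3, beside 10.3% of all genes tested. The 8 tested partners of LKB1 and TAK1 and the 4 tested AMPK-related kinases had 0 genes under the unadjusted threshold in all 3 comparisons.

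**Figure D5:**
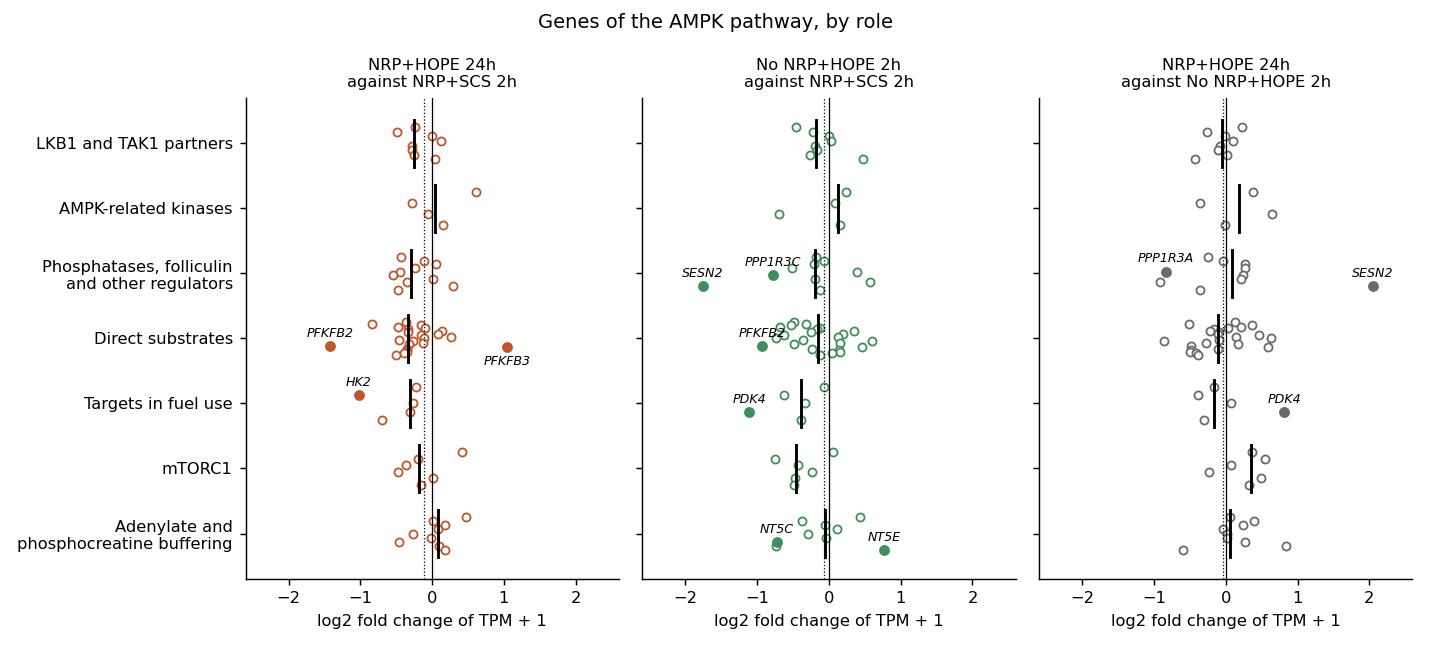
Log2 fold changes of TPM + 1 for tested pathway genes by role in the 3 comparisons, with filled and named points at an unadjusted p under 0.05, a vertical black bar for the median of each list and a dotted line for the median of all 11782 genes. No point passed the adjusted threshold, and SESN2 lies at −1.76 and 2.04 in the comparisons that involve the hearts without NRP.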

How the data were processed

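RNA was taken from 1 apex biopsy per heart, and the pig numbers in the labels gave the groups. According to the study's methods, the authors enriched polyadenylated RNA, trimmed reads, aligned them with STAR 2.5.2b and counted exonic reads with featureCounts of Subread 1.5.2. The sample records list Trimmomatic 0.36 among the tools. The genome build is not given in the sources used here. The authors deposited TPM values, scaled to one common total per heart over 25149 genes. A further 9 columns of the table were not used, because they match no sample. Depth is unknown, so precision rests on the 3 hearts per group. Isoforms are not separated.

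The authors tested counts with DESeq2. Here limma 3.58.1 (R 4.3.3) was run on log2(TPM + 1) with all 9 hearts, a variance trend and Benjamini-Hochberg adjustment over 11782 genes that reached 1 TPM in 3 or more hearts, since a count test needs counts. Fold changes on this scale understate the change of low genes. β shares were compared by exact permutation in Python 3.11.15 with scipy 1.17.1. The α share was planned but not formed, as PRKAA2 was not analysed here. Alternatives tried were no filter, a pseudocount of 0.1, median-of-ratios scaling, leaving out mitochondrial genes, fitting 6 hearts, array weights, no variance trend, a log2 ratio for the β shares and leaving out each heart. The members, lists and neighbours were chosen with earlier results of these data known. The genes named are all members, the 5 pathway genes with the smallest unadjusted p under 0.05 in each comparison with ACACB, PPARGC1A, PDK4, SLC2A4 and RHEB, the 5 genes most correlated with PRKAG2 by each measure, and its 3 neighbours on each side; 1 gene that this rule names is not reported or drawn here, but is in the counts and medians. CPT1B, MLST8 and RPS6KB1 were named after their values were seen.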

Additional observations from a re-analysis of the deposited data

How the results depend on the processing

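CAMKK1 kept its direction in all alternatives of all 3 comparisons. The direction of PRKAG2 against Group 2 is what it was chosen by, so its sign under the alternatives says nothing of stability. The number of genes called over the whole table was small and unstable. For Group 1 against Group 2 (3 called) it was 0 with a pseudocount of 0.1, 1 without a filter, 13 with only the 6 hearts, 60 with array weights and 0 to 12 with a heart left out. For Group 3 against Group 2 (6 called) it was 1 without a filter, 19 with median-of-ratios scaling, 19 without mitochondrial genes, 3 with only the 6 hearts, 94 with array weights and 1 to 13 with a heart left out. Between Groups 1 and 3 (6 called) it was 3 with a pseudocount of 0.1, 3 with median-of-ratios scaling, 2 without mitochondrial genes, 14 with array weights and 0 to 16 with a heart left out. Array weights also called 1 member, CAMKK1 (log2 fold change −1.88, adjusted p = 0.0178), for Group 1 against Group 2. The cause of these moves was not tested.

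Some small values below the threshold changed sign. For Group 1 against Group 2, array weights gave −0.0016 for PRKAG3 and −0.099 for PRKAB2, median-of-ratios scaling gave 0.012 for STK11, and the log2 ratio of PRKAB2 to PRKAB1 differed by 0.0049 where the share differed by −1.79 percentage points. With a heart left out, the log2 fold changes in that comparison ran from −0.10 to 0.24 for PRKAG1, −0.19 to 0.38 for PRKAG3, −0.13 to 0.28 for PRKAB1, −0.43 to 0.43 for PRKAB2, −0.024 to 0.57 for CAMKK2 and −0.59 to 0.20 for STK11, and the β2 share from −10.6 to 5.66 percentage points. For Group 3 against Group 2 they ran from −0.082 to 0.49 for PRKAG3, −0.35 to 0.027 for PRKAA1 and −0.074 to 0.38 for STK11. Between Groups 1 and 3 they ran from −0.23 to 0.088 for PRKAG3, −0.29 to 0.023 for PRKAA1, −0.023 to 0.39 for PRKAB1 and −0.73 to 0.070 for STK11. No paired analysis was possible because the groups share no pig numbers. Depth is unknown, so low genes such as PRKAG3 carry a counting error that cannot be stated.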
